A study of Mus musculus with 6 samples.

Results

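Laminins and the proteins that tie them into basement membranes were followed through 9 genes in subcutaneous tumours of lactating and control mice. The genes were Lama3 and Lamb3, which encode the alpha3 and beta3 chains of epithelial laminin-332, Lama5, Lama4, Lamb1 and Lamc1, which encode further laminin chains, and Nid1, Nid2 and Hspg2, which encode the linkers nidogen-1, nidogen-2 and perlecan. They were taken as the single-gene probe sets that the platform's annotation gives to these symbols by name. Where a gene had several, the one of highest mean signal stands for it. All 9 were among the 18194 genes so named, through 20 of 34958 single-gene probe sets. Of these 20 probe sets, 15 passed the level filter, and each of the 9 genes was among the 11622 genes tested.

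Every tumour grew from KPC1199 cells, which come from a pancreatic ductal adenocarcinoma of the mouse and were injected under the skin of the right back. In the lactation group (3 tumours) hosts were pregnant or nursing at injection, and in the control group (3 tumours) they are labelled only as ctrl. All mice were killed 20 days after injection at the same age. The strain, the age itself and the alleles of the cells are not given in the sources used here, and which lactation mice were already nursing is not labelled. Each tumour is labelled a biological replicate and has its own Affymetrix array. A signal is the MAS5 intensity of a probe set on a linear scale, as the authors deposited it, and a log2 difference is lactation minus control on the log2(signal + 16) scale. The level filter kept a gene whose signal reached the array median on 3 or more arrays.

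A basement membrane is a thin sheet of matrix under epithelia and around blood vessels, muscle fibres and nerves. Laminins are trimers of an alpha, a beta and a gamma chain that polymerise on the cell surface, and nidogens and perlecan connect that layer to a second network of collagen IV. Laminin-332 holds epithelial cells to the matrix through integrin alpha6 beta4 in hemidesmosomes, whereas the alpha4 chain, with beta1 and gamma1, is a typical laminin of vessel walls.

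The groups did not differ by the test in any of the 9 genes. In limma with Benjamini-Hochberg adjustment, 0 of 9 had an adjusted p under 0.05, where 0.0% of the 11622 tested genes did, and each member's adjusted p was 1. At an unadjusted p under 0.05 the counts were 0 of 9 members and 2.27% of all genes. Lactation and control values overlapped in all 9, and they did not overlap in 6.91% of all genes. The median log2 difference, lactation minus control, was -0.11 for the 9 and -0.01 for all genes tested.

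The 9 genes varied by tumour. Control replicate 3 had the highest signal of the 6 arrays in 8 of the 9 and the lowest in Lama5. Over all tested genes this array was the highest in 22.1% and the lowest in 20.4%, and the 6 arrays were each the highest in 14.5% to 22.1%. This pattern was seen in the values and then counted. The log2 differences of the 9 genes are therefore given with and without this array, and so are those of tested genes from other lists that it moved by over 1.5 times or turned. Without it the median difference of the 9 was 0.17 in place of -0.11, and 7 of 9 differences were positive in place of 2 of 9. The share of all genes with a lower mean in lactation was 51.7% with the array and 49.6% without it. In whole tumour RNA, fewer cells of a type and less RNA per cell cannot be told apart.

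**Figure D1:**
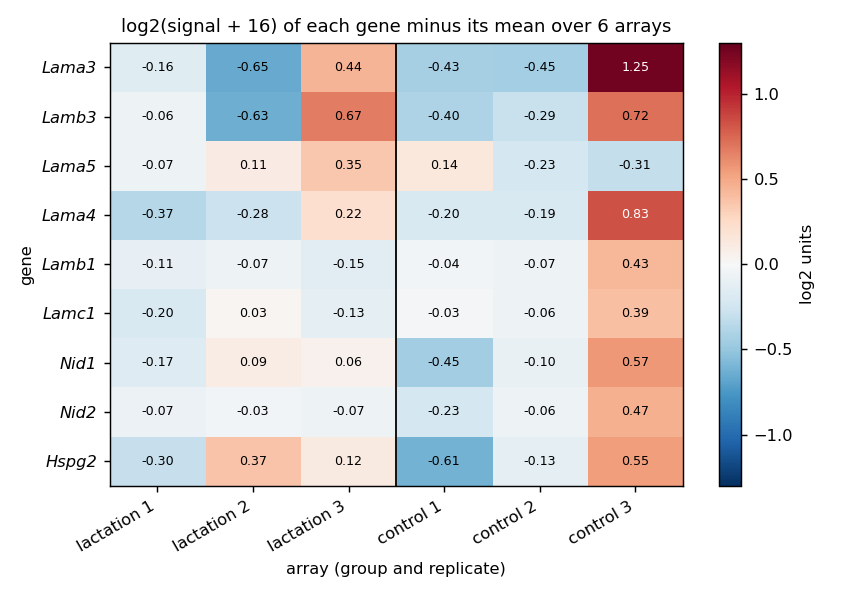
Colour and digits give log2(signal + 16) of each gene (rows) minus its mean over the 6 arrays (columns, lactation left of the line, control right). Control replicate 3 is the highest column for 8 genes and the lowest for Lama5, and Lama3 and Lamb3 are also high in lactation replicate 3.

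The 250 bases before the annotated start of 4 of the genes are shown because Lama5 and the other 3 had opposite extremes on the same array. They come from RefSeq (GRCm38.p6), whose promoter table matched 5 of the 9 genes. Hspg2, the fifth, was also highest in control replicate 3, but its window is counted below and not shown. Lama3, Lama4, Lamc1 and Nid2 were not used here. Each window shown is written 5′ to 3′ on the strand of its gene, and capitals mark GC boxes, the letters GGGCGG on either strand. Lamb3 has 2 annotated windows, of which the upstream one is shown.
Lamb3, chr1:193301744-193301993, plus strand: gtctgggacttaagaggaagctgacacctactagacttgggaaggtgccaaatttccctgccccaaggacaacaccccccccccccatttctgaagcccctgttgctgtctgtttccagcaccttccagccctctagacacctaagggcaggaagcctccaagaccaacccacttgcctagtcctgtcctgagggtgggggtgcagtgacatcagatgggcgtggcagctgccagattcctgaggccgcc
Lama5, chr2:180225860-180226109, minus strand: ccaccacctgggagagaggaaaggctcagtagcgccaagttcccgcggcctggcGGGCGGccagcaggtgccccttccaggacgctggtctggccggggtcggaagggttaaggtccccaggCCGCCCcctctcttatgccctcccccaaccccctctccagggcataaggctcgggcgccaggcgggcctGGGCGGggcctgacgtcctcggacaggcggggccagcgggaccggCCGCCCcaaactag
Lamb1, chr12:31265043-31265292, plus strand: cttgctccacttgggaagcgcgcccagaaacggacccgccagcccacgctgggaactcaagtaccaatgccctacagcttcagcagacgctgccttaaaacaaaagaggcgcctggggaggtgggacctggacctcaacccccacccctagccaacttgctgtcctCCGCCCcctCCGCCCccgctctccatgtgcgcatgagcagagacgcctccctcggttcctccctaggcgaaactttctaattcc
Nid1, chr13:13437352-13437601, plus strand: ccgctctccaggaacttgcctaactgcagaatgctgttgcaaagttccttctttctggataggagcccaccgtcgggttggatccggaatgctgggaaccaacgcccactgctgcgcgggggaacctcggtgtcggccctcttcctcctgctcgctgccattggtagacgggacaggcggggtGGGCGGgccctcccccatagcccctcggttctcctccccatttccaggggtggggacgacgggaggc
A GC box was present in the windows of 4 of these 5 genes, with 4 in Lama5, 5 in Hspg2, 2 in Lamb1 and 1 in Nid1. Of the 32851 windows of all genes 32.7% had one, a share of windows, where the 5 genes have 6. Neither Lamb3 window had one. The CCAAT box, spelled CCAAT and searched on both strands, was present in Lamb1 and Nid1 and in 33.8% of all windows. The TATA box TATAAA and the AP-1 site TGANTCA, also searched on both strands, were in none of the 5 and in 12.4% and 6.75% of all windows. Whether these sequences bear on the opposite extremes was not tested.

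Laminin-332 chains were the most variable of the 9. Lama3 had signals of 551, 387 and 842 in lactation and of 452, 449 and 1492 in controls. The control range contains the whole lactation range except its lowest array. Its mean was 593 ± 230.3 in lactation and 798 ± 601 in controls (SD, n = 3 each, as for every mean given), a log2 difference of -0.25 with a 95% interval of -1.41 to 0.92. The highest array was 3.85 times the lowest, the widest ratio among the 9.

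Lamb3 had signals of 768, 513 and 1286 in lactation and of 605, 653 and 1333 in controls. In each group replicate 3 was the high array, and the other 2 lay at about the same level in both groups. The means were 856 ± 394 in lactation and 864 ± 407 in controls, a log2 difference of -0.02 (interval -0.96 to 0.92). Without control replicate 3 the difference was 0.32 for Lama3 (interval -0.42 to 1.05) and 0.34 for Lamb3 (interval -0.51 to 1.19), so that both signs turned. The genes of these chains followed each other across the arrays, at a root mean square distance of 0.249 log2 units after centring each gene on its mean over 6 arrays. A second Lama3 probe set lay below the filter, with mean signals of 8.50 in lactation and 13.1 in controls.

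**Figure D2:**
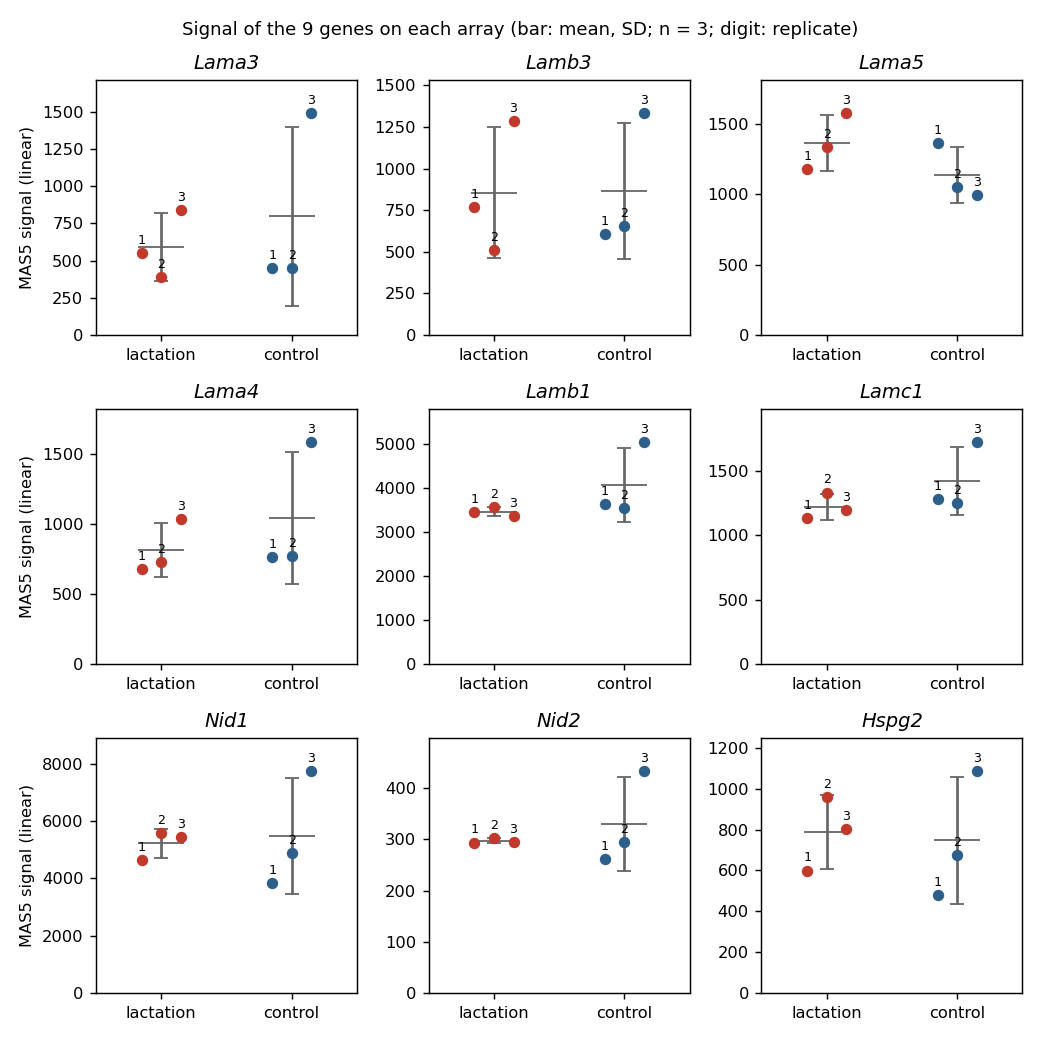
Points are MAS5 signals on a linear axis from 0, one per array, with the replicate number above, and the grey bar is the mean with its SD (n = 3). Control replicate 3 lies above the other controls in every panel except that of Lama5, at 1492 for Lama3 and 1333 for Lamb3.

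Among all tested genes that were not members, 5 lay nearest to the mean centred pattern of Lama3 and Lamb3 by root mean square distance over the 6 arrays. They were Stmn4, a stathmin-like gene (distance 0.172), Serpinb5, the epithelial serpin maspin (0.187), Sytl2, a synaptotagmin-like protein (0.205), Add2, beta-adducin (0.227), and Srgap1, a GTPase-activating protein (0.229). Serpinb5 had signals of 727, 568 and 1196 in lactation and of 559.7, 538 and 1175 in controls. Like Lamb3 it was high in replicate 3 of both groups, which follows from its choice by closeness to this pattern. Its log2 difference was 0.16 with all 6 arrays, and the value without control replicate 3 is not given here.

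The receptors and anchoring proteins of laminin-332 varied among themselves. Of the 9 genes of this list, 8 were tested, 0 passed the adjusted test in limma, and 6 had positive and 2 negative differences with a median of 0.08, and of 0.14 without control replicate 3. Itga3, an integrin chain that binds laminin-332, had a log2 difference of 0.33 (interval -0.10 to 0.76), and Itgb4, the beta chain of the hemidesmosome integrin, one of 0.14 (interval -0.42 to 0.71) and of 0.25 without that array. Col7a1, the collagen of anchoring fibrils, had signals of 919, 1965 and 1996 in lactation and of 764, 788 and 2805 in controls. Its difference was 0.36 (interval -0.92 to 1.64) and 0.97 without control replicate 3. Control replicate 3 was the highest array in 1 of these 8 genes, Col7a1, or 12.5%, and in 22.1% of all tested genes.

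Markers of basal keratinocytes, the skin cells known for laminin-332, had summed signals of 8013, 6328 and 11403 in lactation and of 5798, 5371 and 9776 in controls, over 6 of 7 genes with a probe set. No gene of the list was at 0, and Krt1, a keratin of differentiated epidermis, lay below the array medians throughout, at 1.29 to 3.20 in lactation and 2.08 to 2.74 in controls. Krt10, another keratin of differentiated epidermis, lay above the medians on all 6 arrays, at 233 to 297 in lactation and 242 to 293 in controls. The sums were highest in replicate 3 of both groups, as Lamb3 was, and Krt14 was the largest part of each sum. Control replicate 3 was the highest array in 0 of the 5 tested genes, where the share over all tested genes was 22.1%. Krt14, a basal keratin, had signals of 6313, 3762 and 7734 in lactation and of 4006, 3521 and 7480.1 in controls, with a log2 difference of 0.27, and of 0.60 without control replicate 3. Krt5, the partner of Krt14, did not share that order, at 347, 331 and 837.5 in lactation and 269, 242 and 147 in controls. Its difference was 1.06 (limma unadjusted p = 0.0284, adjusted p = 1). Krt15, another basal keratin, had a difference of 0.49, and of 1.03 without control replicate 3. The median of the 5 tested genes was 0.27, and it was 0.60 without control replicate 3 and -0.02 without lactation replicate 3. The part of such cells in the laminin-332 values was not tested.

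Skeletal muscle markers ran the other way on the same arrays. Their signals summed over 7 genes to 80797, 27723 and 13366 in lactation and 33519, 78836 and 10122 in controls, lowest in replicate 3 of both groups, with no gene at 0. Myh4, Ckm and Myh1, genes of the contractile and energy apparatus, had log2 differences of 0.67, 0.35 and -0.35, with intervals from -2.11 to 3.45 at the widest. These differences were -0.45, -0.54 and -0.90 without control replicate 3, and 0 of the 7 genes had a positive difference in place of 4. The median of the 7 was 0.06, against -0.70 without that array and 0.93 without control replicate 2. Ductal epithelial markers had sums of 109209, 91468 and 130761 in lactation and of 107885, 84478 and 95063 in controls. Whether these signals came from the tumour cells or from other epithelium was not tested. All 16 of these markers passed the level filter and 0 of 16 passed the adjusted test in limma. Differences were positive in 16 of 16, with and without control replicate 3, where 5616 of all 11622 tested genes had a positive one. At an unadjusted p under 0.05 there were 2 of the 16, St14 and Ehf, an epithelial transcription factor, against 2.27% of all tested genes. In these 2 of the 16 the groups did not overlap, and they did not overlap in 6.91% of all tested genes. The median difference was 0.31, the same without control replicate 3, and 0.17 without lactation replicate 3. Control replicate 3 was the highest array in 0 of the 16 and the lowest in 5. Over all tested genes it was the highest in 22.1% and the lowest in 20.4%. The largest differences were 0.64 for Tspan8, 0.61 for St14 and 0.60 for Muc1, which encode membrane proteins of epithelia, and without control replicate 3 they were 0.33 for Tspan8, 0.63 for St14 and 0.34 for Muc1. The part of muscle and epithelial cell content in the laminin values was not tested.

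Lama5, whose alpha5 chain occurs in the basement membranes of many epithelia and of vessels, was the only member with control replicate 3 at the bottom. It had signals of 1178.5, 1334 and 1576 in lactation and of 1362, 1054 and 995 in controls. Control replicate 1 lay above 2 of the 3 lactation arrays. The means were 1363 ± 200.03 in lactation and 1137 ± 197 in controls, a log2 difference of 0.26 (interval -0.11 to 0.63), and 0.17 without control replicate 3 (interval -0.23 to 0.58). A second probe set gave 705, 789.6 and 923 in lactation and 837, 599.7 and 469 in controls, a difference of 0.37. It had the same order of arrays at the top and the bottom. The other probe set, at 8.04 to 23.8 in lactation and 3.63 to 22.5 in controls, lay below the filter.

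**Figure D3:**
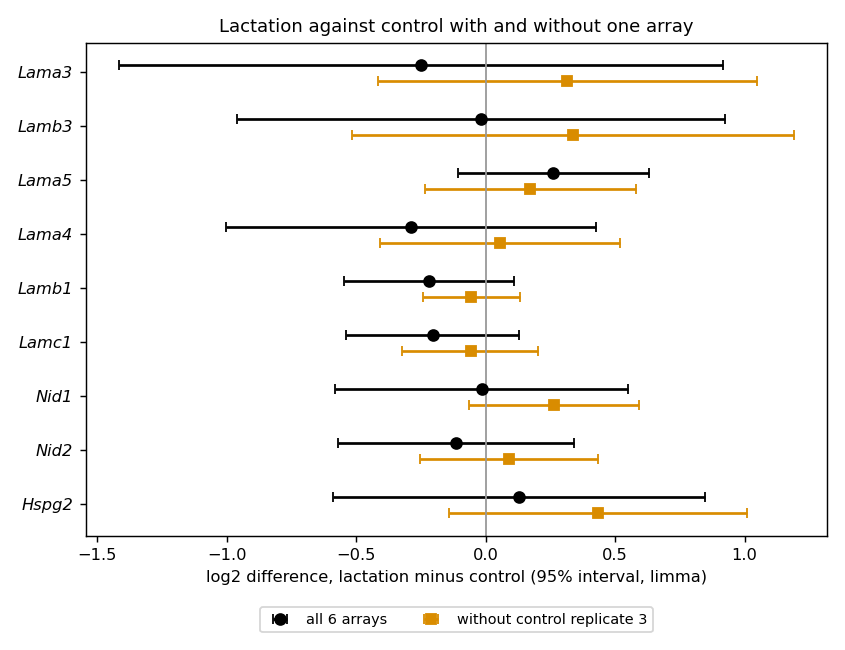
Points are log2 differences, lactation minus control, with 95% intervals from limma, for all 6 arrays (black circles) and without control replicate 3 (orange squares). Every interval of both fits includes 0, and the value of Lama3 is -0.25 with all arrays and 0.32 without that array.

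The alpha4, beta1 and gamma1 chains had a narrower spread outside control replicate 3 than the laminin-332 chains. Lama4, the alpha chain of vessel laminin, had signals of 679, 726 and 1030.3 in lactation and of 765, 770.4 and 1583 in controls. The 2 lower controls lay within the lactation range. The means were 812 ± 191 in lactation and 1039.6 ± 470.5 in controls, a log2 difference of -0.29 (interval -1.004 to 0.43), and 0.05 without control replicate 3 (interval -0.41 to 0.52). A second Lama4 probe set, below the filter, measured 33.0, 77.9 and 69.2 in lactation and 65.9, 87.8 and 127 in controls.

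Lamb1, a beta chain of laminins in most tissues, had signals of 3452, 3553 and 3347 in lactation and of 3627, 3541 and 5038 in controls. The means were 3450.4 ± 103 in lactation and 4069 ± 840.3 in controls. The log2 difference was -0.22 (interval -0.55 to 0.11), and it was -0.05 without control replicate 3 (interval -0.24 to 0.13). Its other 2 probe sets past the filter had differences of -0.24 and -0.30, and control replicate 3 was the highest array in all 3.

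Lamc1, the gamma chain of the same trimers, had signals of 1137, 1334 and 1197 in lactation and of 1287, 1255 and 1727 in controls. Lactation replicate 2 lay above the 2 lower controls. The means were 1223 ± 101 in lactation and 1423 ± 264 in controls, a log2 difference of -0.20 (interval -0.54 to 0.13), and -0.06 without control replicate 3 (interval -0.32 to 0.20). A second, dimmer probe set measured 168, 164 and 179 in lactation and 169, 216 and 195 in controls. There control replicate 2 and not 3 was the highest, the only such case among the 13 probe sets past the filter of the 8 members other than Lama5. The other 12 had control replicate 3 at the top.

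Nid1 and Nid2, the nidogens that bridge laminin and collagen IV, were close between the groups. Nid1 had signals of 4638, 5576 and 5429 in lactation and of 3824, 4881 and 7744 in controls. The lactation arrays lay inside the control range, with means of 5214 ± 505 in lactation and 5483 ± 2028 in controls. The log2 difference was -0.01 (interval -0.58 to 0.55), and 0.27 without control replicate 3 (interval -0.06 to 0.59). A second probe set past the filter had a difference of -0.26, with the same array at the top.

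Nid2 had signals of 294, 303 and 295 in lactation and of 261, 296 and 434 in controls. The lactation arrays lay close together, at 297 ± 4.90, against 331 ± 91.5 in controls. The log2 difference was -0.11 (interval -0.57 to 0.34). Without control replicate 3 it was 0.09 (interval -0.25 to 0.44). Hspg2, the heparan sulphate proteoglycan perlecan, had signals of 599, 961 and 803 in lactation and of 477, 676 and 1087 in controls. The lactation range lay inside the control range. The means were 788 ± 182 in lactation and 747 ± 311 in controls, a log2 difference of 0.13 (interval -0.59 to 0.85). Without control replicate 3 it was 0.43 (interval -0.14 to 1.01). A second Hspg2 probe set gave a difference of -0.03, with 606, 810.02 and 657 in lactation and 744, 497 and 920.1 in controls.

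The 5 genes nearest to the mean centred pattern of Lama4, Lamb1, Lamc1, Nid1, Nid2 and Hspg2 included Col15a1, a basement membrane collagen, and Col4a2, a chain of collagen IV. Col15a1 lay at a distance of 0.0439 and had signals of 344, 428 and 403 in lactation and of 317, 362 and 605 in controls. Col4a2 lay at 0.0524, with 2141, 2261 and 2327 in lactation and 1917, 2064 and 3458 in controls. The other 3 were Tbc1d2b (0.0439), Gpx3, an extracellular glutathione peroxidase (0.0497), and Arhgap29 (0.0516). All 5 were highest in control replicate 3, and their groups overlapped. They were chosen for closeness to a pattern with both traits, so this is no separate finding.

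**Figure D4:**
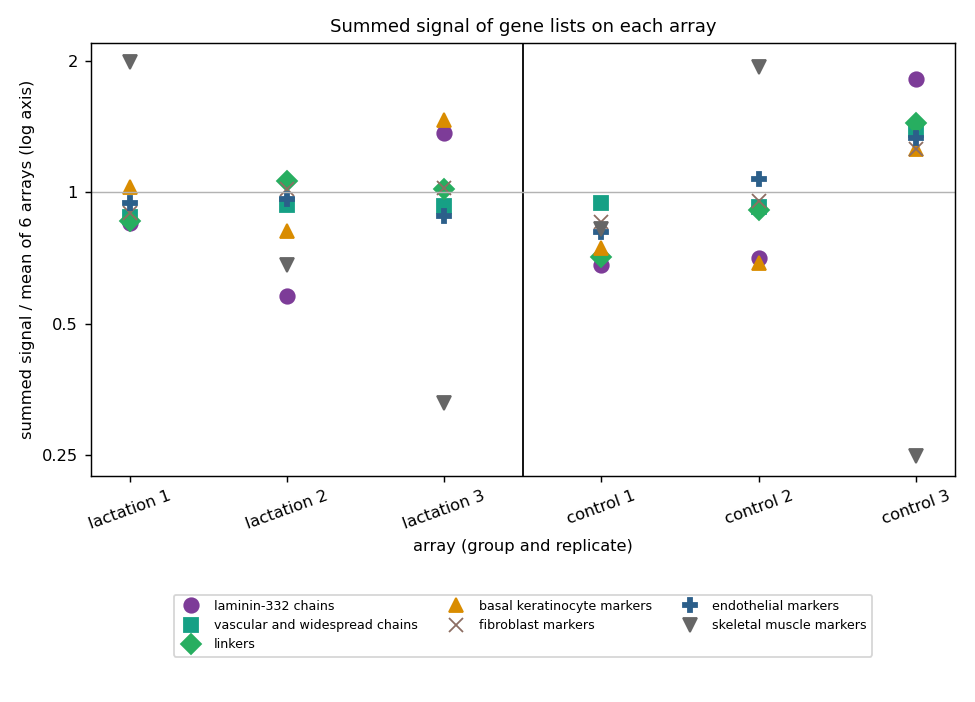
Each symbol is the summed signal of a gene list on 1 array divided by the list's mean over 6 arrays, on a log axis, with lactation left of the line and control right. Laminin-332 chains and basal keratinocyte markers are high in lactation replicate 3 and control replicate 3, where skeletal muscle markers are low, and the other lists are high in control replicate 3.

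Of the other laminin chain genes, Lama2 and Lamb2 passed the level filter. Lama2, the alpha chain of muscle and nerve laminin, had signals of 303, 342 and 274 in lactation and of 237, 360.1 and 441 in controls, a log2 difference of -0.13 (interval -0.67 to 0.41), and of 0.06 without control replicate 3. Lamb2, a beta chain of muscle synapse and kidney, had 499, 529 and 618 in lactation and 485, 518 and 607 in controls, a difference of 0.03 (interval -0.28 to 0.34), and of 0.12 without that array. Its values were nearly the same in both groups. Lama1, an alpha chain of the early embryo, lay below the filter, with 64.3 to 102 in lactation and 37.4 to 100.5 in controls. Lamc3, a gamma chain, did too, with 44.2 to 95.5 in lactation and 21.3 to 98.2 in controls.

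Collagen IV, the second network, had 3 of its 6 chain genes tested, and 0 passed the adjusted test in limma. Col4a1 had signals of 4118, 4241 and 4560.2 in lactation and of 3938, 3927 and 6286 in controls, a log2 difference of -0.10 (interval -0.53 to 0.34). Col4a2 had a difference of -0.09 and Col4a5 one of 0.08. Without control replicate 3 the differences were 0.13 for Col4a1, 0.17 for Col4a2 and 0.20 for Col4a5, so that 3 of 3 were positive in place of 1. Col4a3, Col4a4 and Col4a6, chains of specialised basement membranes, lay below the filter. Col4a3 averaged 32.6 in lactation and 30.3 in controls, Col4a4 averaged 30.6 in lactation and 47.9 in controls, and Col4a6 averaged 88.4 in lactation and 71.4 in controls.

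Of 16 other basement membrane genes, 12 were tested, and 5 had positive and 7 negative differences with a median of -0.07. None passed limma's adjusted test. At an unadjusted p under 0.05 there was 1 of the 12, against 2.27% of all tested genes. This was Tinagl1, a secreted protein of basement membranes, with 659, 979 and 814 in lactation and 663, 556 and 599.8 in controls. Its log2 difference was 0.41 (interval 0.04 to 0.78, limma unadjusted p = 0.0363, adjusted p = 1), and 0.40 without control replicate 3. Npnt, nephronectin, an integrin ligand of epithelial basement membranes, had a difference of 0.29, and Col18a1, the precursor of endostatin, one of -0.26 and of -0.09 without control replicate 3. Without that array, 10 of the 12 were positive and the median was 0.24.

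Dystroglycan, a laminin receptor of many cell types, and the tested enzymes that glycosylate it had the 4 positive differences of their list. The 2 negative ones were those of other genes on it. Of 9 genes on that list 6 were tested and 0 passed in limma, with a median difference of 0.02, and of -0.02 without control replicate 3. Itga7, an integrin of muscle, had -0.25, Pomt2, which starts the sugar chain, 0.11, and Pomgnt1, which extends it, 0.07. Without that array Itga7 had -0.41 and Pomgnt1 0.04, and 3 of the 6 differences were positive. Control replicate 3 was the highest array in 0 of these 6 and in 22.1% of all tested genes.

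Genes that assemble or cut basement membranes were mostly highest in control replicate 3. This held in 8 of 9 tested genes of assembly and modification and in 12 of 15 of cleavage and remodelling, where the share over all tested genes was 22.1%. The median differences of these lists were -0.11 and -0.14, 0 genes passed the adjusted test in limma, and without control replicate 3 both medians were 0.04. Plod2, a collagen lysyl hydroxylase, had a difference of -0.19, P4ha2, a prolyl hydroxylase, 0.18, and P3h1, a prolyl 3-hydroxylase, -0.16. Without that array they were -0.01 for Plod2, 0.38 for P4ha2 and 0.07 for P3h1. Timp1, a metalloprotease inhibitor, measured 4940.4, 4681 and 4462 in lactation and 4357, 4927 and 9406 in controls. Its difference was -0.32, and 0.02 without control replicate 3. Sulf1, which removes sulphate from heparan chains such as those of perlecan, had -0.36, and -0.01 without that array. Adamts1, a protease of proteoglycans, had 0.40.

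Markers of the cells that make vessel and stromal basement membranes were also highest in that array. Control replicate 3 was at the top in 10 of 12 endothelial, 5 of 6 pericyte and 7 of 8 fibroblast markers, and in 22.1% of all tested genes. Endothelial signals summed to 5566, 5691 and 5204 in lactation and 4783, 6309 and 7837 in controls, pericyte signals summed to 11393, 9684 and 9720.2 in lactation and 11055, 11776 and 16183 in controls, and no gene of these lists was at 0. Fibroblast signals summed to 74949, 84862 and 85312 in lactation and 71239, 79568 and 104679.6 in controls. The part of these cells in the values of the laminin and linker genes was not tested.

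None of these 3 marker lists had a gene past the adjusted test in limma. The median differences were -0.15 for endothelial, -0.29 for pericyte and -0.02 for fibroblast markers, and 0.02, -0.08 and 0.14 without control replicate 3. Vwf, von Willebrand factor of endothelial cells, had groups that did not overlap, as 6.91% of all tested genes had. Its difference was -0.32 (limma unadjusted p = 0.035, adjusted p = 1), and Emcn had -0.29 and Erg -0.28. With that array left out these were -0.24 for Vwf, -0.08 for Emcn and -0.02 for Erg. Among pericyte markers Pdgfrb, the receptor of PDGF-B, had -0.43, Abcc9 -0.35 and Kcnj8 -0.31, and among fibroblast markers Pdgfra had -0.36, Fap -0.23 and Lum -0.13. Without control replicate 3 Pdgfrb had -0.25, Abcc9 -0.27 and Kcnj8 -0.07, while Pdgfra stayed at -0.36, Fap had -0.01 and Lum, with the sign turned, 0.24. Without control replicate 1, in contrast, the medians were -0.35 for endothelial, -0.40 for pericyte and -0.28 for fibroblast markers.

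Adipocyte and Schwann cell markers, cells that also lie on a basement membrane, had 2 tested genes each. Adipoq, a hormone of fat cells, had a log2 difference of 0.84 (interval -0.59 to 2.28) and Fabp4, a fatty acid binding protein, 0.10. Pmp22 and Mbp, genes of myelin, each had -0.03, and 0.33 and -0.01 without control replicate 3. None of the 6 milk and mammary genes passed the level filter, and their signals summed to 136, 1218 and 175 in lactation and 169, 163 and 154 in controls. The high sum was that of lactation replicate 2. This array was the highest in 0 of the 9 laminin and linker genes, as were lactation replicate 1, control replicate 1 and control replicate 2. Control replicate 3 was the highest in 8 of the 9. Over all tested genes the 6 arrays were each the highest in 14.5% to 22.1%. The part of mammary tissue in the laminin values was not tested.

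**Figure D5:**
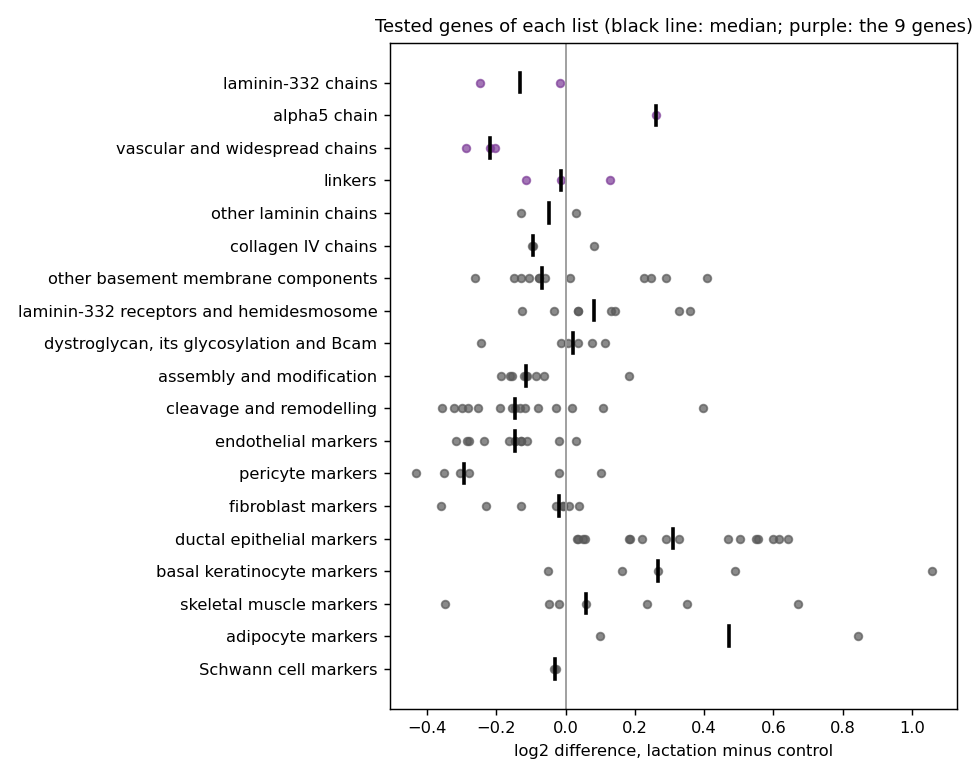
Points are log2 differences, lactation minus control, of the tested genes of each list, with the list's median as a black line and the 9 laminin and linker genes in purple. The 9 lie between -0.29 and 0.26, while the ductal epithelial list has a median of 0.31.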

How the data were processed

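Per the labels' protocols, total RNA of each tumour was labelled with biotin as cRNA for Affymetrix arrays. The deposited intensity values are linear, 45101 probe sets on 6 arrays. Per the submitters' processing notes the authors used MAS5, with no version given. Each array's mean, trimmed by 2% at each end, was 500.0, and array medians ran from 99.3 to 111.0. The number of arrays limits the precision.

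Values were taken as log2(signal + 16), so fold changes of dim genes are understated. Each gene was represented by its single-symbol probe set of highest mean and kept where at least 3 arrays lay at or above their median. The groups were compared in limma 3.58.1 under R 4.3.3 (intensity trend, group as the only term, Benjamini-Hochberg adjustment over all tested genes at 0.05), and a separate fit over 20267 probe sets served the single probe sets, of which 0 passed. Intervals are limma's 95% intervals. The fit was tested on simulated data. Python 3.11.15, numpy 2.4.6, pandas 2.3.3 and matplotlib 3.10.9 were used for tables and figures.

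Named were all members, laminin and collagen IV chains, up to 3 genes of largest difference per other list, and the 5 genes nearest to each of 2 member patterns. Krt1, Krt10, Serpinb5's values and the count of arrays at the top were chosen after values were seen. The members and lists were chosen with earlier results of these data known. Alternatives were other normalizations, added constants of 1 and 64, other filters, other probe set rules, no trend, robust eBayes, array weights, the replicate block and leaving out each array.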

Additional observations from a re-analysis of the deposited data

How the results depend on the processing

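Under 12 alternatives (10 for probe sets) and 6 fits that each left out an array, 0 genes and 0 probe sets passed limma's adjusted p under 0.05. The lowest adjusted p of any member in these 158 values was 0.869, that of Lama5 without control replicate 1, where its difference was 0.40. It was the 1 value with an unadjusted p under 0.05. The count of genes at an unadjusted p under 0.05 was 264, and 577 with no filter, and it ranged from 139 (without lactation replicate 3) to 649 (without control replicate 1) when an array was left out, with 411 without lactation replicate 2. With the replicate block that count was 290.0 and the median difference of the 9 members -0.11. That block moved no call. With it the standard error was 0.22 in place of 0.49 for Lama3, 0.16 in place of 0.40 for Lamb3 and 0.14 in place of 0.30 for Lama4. It was 0.17 in place of 0.24 for Nid1 and 0.20 in place of 0.30 for Hspg2. Those of Lamb1, Lamc1 and Nid2 stayed at 0.14, 0.14 and 0.19, and that of Lama5 was 0.18 in place of 0.16. Deviations of same-numbered arrays from their group means correlated at 0.143, -0.0837 and 0.268, and 1 of 3 lactation arrays correlated best with the control array of its own number, so the numbers were not taken as pairs. The median ranged from -0.26 to 0.17 when an array was left out.

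The sign of a member turned in 15 of the 158 values, none of them past the test. When an array was left out the log2 difference ranged from -0.53 to 0.32 for Lama3, from -0.36 to 0.34 for Lamb3, from -0.47 to 0.05 for Lama4, from -0.24 to 0.27 for Nid1, from -0.26 to 0.09 for Nid2 and from -0.15 to 0.43 for Hspg2, with the highest value in each case without control replicate 3. Those of Lama5, Lamb1 and Lamc1 kept their sign, from 0.15 to 0.40, from -0.31 to -0.05 and from -0.29 to -0.06. With array weights the difference was 0.01 for Lama3, 0.17 for Lamb3 and 0.05 for Nid1, and with quantile normalization that of Nid1 was 0.00. The cause was not tested. Under the probe set of largest variance, Lama5, Lama4 and Lamb1 could not be tested, and with the filter at the 70th percentile Nid2 could not.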
